A study of Mus musculus with 23 samples.

Results

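A total of 1004 genomic sites carried a p65 peak in untreated NCoR knockout macrophages and in no other p65 library of the study. They were chosen by the positions of listed peaks, as those of the untreated knockout list that overlapped, by 1 bp or more, no peak of untreated wild type, KLA-treated wild type or KLA-treated knockout macrophages. They made up 45.1% of the 2227 untreated knockout peaks, which is a consequence of the rule and is given as a description. The working name of these sites, knockout only, untreated and absent after KLA, holds for the peak lists, and absence means only that no peak was listed. All macrophages were peritoneal cells elicited with thioglycollate, from C57BL/6 male mice of 6 to 8 weeks, kept overnight in low serum. Knockout cells were NCoR fl/fl with Lys M-Cre +/-, and wild type cells were NCoR fl/fl with Lys M-Cre -/-, so both genotypes carried the floxed alleles. The Lys M promoter drives Cre in myeloid cells, and how far NCoR was lost was not measured by these lists. Cells were left untreated or given 100 ng/ml of Kdo2-Lipid A (KLA) for 1 h. Another list held sites of biotin-tagged LXRβ in RAW264.7, a mouse macrophage cell line, treated for 2 h with the LXR agonist GW3965 at 1 µM. There was 1 library per group and peaks of 1 library are not replicates, so the groups were not tested against each other. Every interval is a 95% interval and covers counting error only.

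p65 (RelA) is the NF-κB subunit with a strong transcription activation domain. In a resting cell inhibitor proteins of the IκB family hold most of it in the cytoplasm. Lipid A is sensed by the receptor TLR4, whose signal degrades these inhibitors and lets p65 enter the nucleus, where it binds at inflammatory genes. NCoR is a corepressor that brings histone deacetylase complexes to DNA-bound factors, among them the unliganded nuclear receptors. LXRβ is such a receptor. Oxysterols activate it, and its target genes serve cholesterol export and lipogenesis.

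The untreated libraries held 786121 tags in the knockout and 777228 in the wild type. The KLA libraries were deeper, with 1673506 tags in the knockout and 2120392 in the wild type. Heights are given as the authors normalized them, to a library of 10000000 tags. At that scale 1 tag was worth 12.7 in the untreated knockout, 12.9 in the untreated wild type, 5.98 in the knockout KLA and 4.72 in the wild type KLA library. The stated threshold was 5 tags in each p65 library, which is a height of 63.6, 64.3, 29.9 and 23.6 in the same order, and the wild type KLA list reached down to 18.9. Positions are on mouse build mm9, and sites are named by position because no annotation or genome of that build was used here.

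The 1004 sites were mostly low, as was the whole untreated knockout list. Their median height was 76.3, or 6 tags, the same as in all 2227 peaks of that list. Their quartiles were 63.6 and 89.0, and the highest value was 508.8. A total of 657 sites (65.4%, Clopper-Pearson interval 62.4 to 68.4) had 6 tags or fewer, against 63.7% of all untreated knockout peaks. Among the sites, 122 had 10 tags or more (12.2%, against 14.1% of the list) and 29 had 15 or more (2.89%, against 6.42%). The 1004 sites together held 6865 tags, which is 0.873% of the untreated knockout library, against 2.22% in all peaks of that list.

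The share of the list that these sites made up lay between 40.4% and 54.1% up to 19 tags. It was 48.1% for peaks with 5 tags, 42.9% with 6, 45.5% with 7 to 9, 54.1% (46.3 to 61.7) with 10 to 14 and 40.4% (27.0 to 54.9) with 15 to 19. Above that it was lower, at 6 of 48 peaks with 20 to 29 tags and 2 of 43 with 30 or more, where 38 of 43 peaks were shared with untreated wild type cells. The plot of classes by tag number shows the shared class taking over among the tallest peaks.

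**Figure D1:**
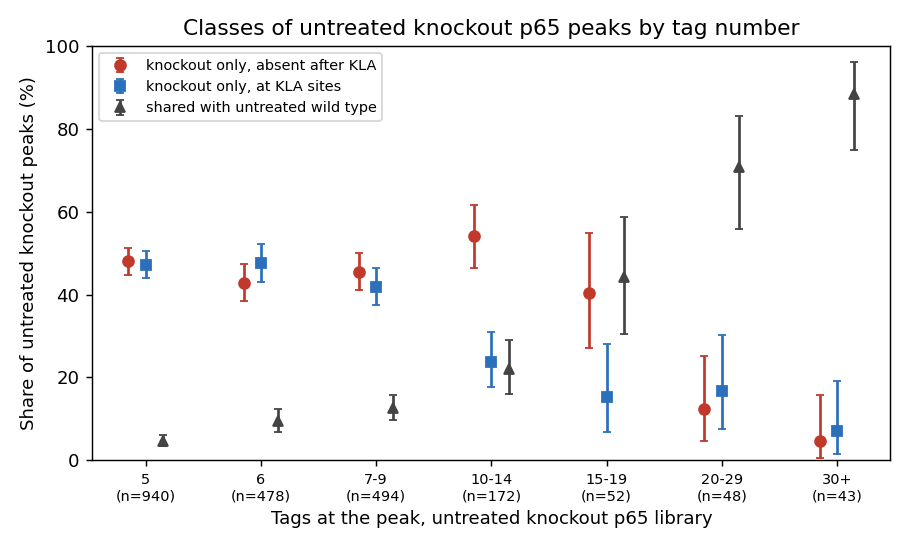
Share of untreated knockout p65 peaks (y axis, %) in each of 3 classes, by the number of tags at the peak (x axis, with the number of peaks in each bin). Points are shares and bars are 95% Clopper-Pearson intervals. Sites absent after KLA made up 48.1% of peaks with 5 tags and 54.1% of those with 10 to 14, and 2 of 43 with 30 or more.

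The same rule applied the other way gave a much shorter set. Of the 702 untreated wild type peaks, 91 overlapped no peak of the 3 other p65 lists, which is 13.0% of that list. Of these 91 peaks, 73 had 6 tags or fewer, and 9 had 10 or more. The wild type set took 19.4% of the wild type peaks with 5 tags and 6.08% of those with 7 to 9, where the knockout set took 48.1% and 45.5%. Peak width was set to 126 bp for the knockout and 103 bp for the wild type list, and its part in the difference was not tested. The genotype and the library cannot be told apart in this comparison.

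Depth set how far absence from the other lists can be read. At an equal height, a site with 5 tags in the untreated knockout would hold 10.6 tags in the knockout KLA and 13.5 in the wild type KLA library, against the threshold of 5. At the lower end of the Poisson interval of their tags, 552 of the 1004 sites would still reach 5 tags in the wild type KLA library. In both KLA libraries 347 sites (34.6%, 31.6 to 37.6), those of 7 tags or more, would do so. Of all untreated knockout peaks, 36.3% had 7 tags or more. Peaks of 5 tags, which fell short at that lower end in both KLA libraries, made up 45.0% of the sites and 42.2% of that list. The untreated wild type library allowed less. A site of 5 tags in the knockout stood for 4.94 tags there, under the threshold, and 100 sites (9.96%, 8.18 to 12.0) had a lower bound at or above 64.3. These bounds follow from tag number alone, take each library's tags as comparable and do not allow for the choice of sites by the tag threshold. A listed peak also had to pass filters on input and on the surrounding 10000 bp, and no input entered the calling of wild type KLA peaks. Whether a filter removed any of these sites from another list was not tested.

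The tallest site, on chromosome 17 between 39983463 and 39983589, reached 508.8 (Poisson interval 363.5 to 692.9, 40 tags). Another tall site lay nearby, between 39980354 and 39980480, at 343.5. These had 3.2 and 4.7 scaled input tags and were the only 2 of the 1004 sites with 1 or more (0.199%, against 1.62% of all untreated knockout peaks). Wild type cells had peaks of 308.8 (untreated) and 141.5 (KLA) centred 1024 and 990 bp from the taller site. This stretch of chromosome 17 held input signal and peaks of both genotypes.

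The tallest site with under 1 input tag, on chromosome 5 between 150059730 and 150059856, reached 394.3 (268 to 560, 31 tags). It lay close to excluded peaks, of 141.5 in untreated wild type cells at 238 bp and of 35.9 in KLA-treated knockout cells at 240 bp. The next 2 had no such neighbour. One, on chromosome 3 between 148980150 and 148980276, reached 330.7 (26 tags), with the nearest wild type KLA peak (103.8) at 9675 bp and the nearest knockout KLA peak (101.6) at 9682 bp. The other, on chromosome 19 between 9206722 and 9206848, reached 318.0 (206 to 470, 25 tags), and its nearest KLA peak was at 56657 bp. At equal height the chromosome 3 site would have held 70.1 wild type and 55.3 knockout KLA tags.

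The remaining tall sites also differed in how near a KLA peak lay. The site at chromosome 4 from 120697465 to 120697591 (292.6) lay 837 bp from a wild type KLA peak of 47.2 and 850 bp from a knockout KLA peak of 53.8. The site at chromosome 1 from 16145096 to 16145222 (279.9) lay 6583 bp from the nearest KLA peak. The site at chromosome 8 from 70357222 to 70357348 (241.7) had no KLA peak within 103752 bp, and for that at chromosome 3 from 27702904 to 27703030 (229.0) the nearest was 12372 bp away with a height of 226.4. Each of these 4 had 0.1 scaled input tags or fewer. The remaining site of the 10 tallest, on chromosome 11, belonged to a cluster described further on.

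**Figure D2:**
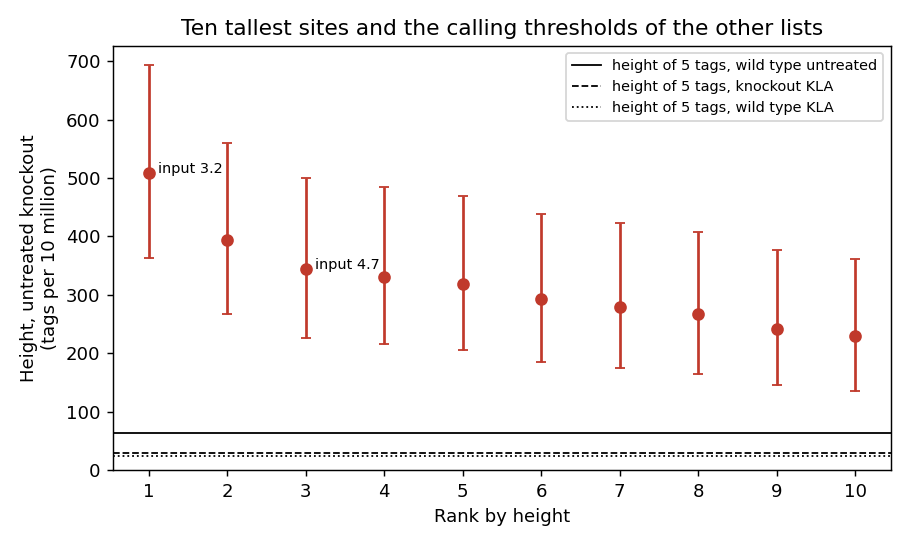
Height in the untreated knockout library (y axis, tags per 10000000) of the 10 tallest sites, by rank (x axis). Bars are 95% Poisson intervals of the tags, lines mark the height of 5 tags in each of the 3 other p65 libraries, and input tags are written beside sites with 1 or more. The 10 sites all lie above the 3 lines, from 229.0 to 508.8.

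The edge of the rule separated peaks a few bp apart in their overlap. The members closest to an excluded peak were 6 bp away from it, at chromosome 2 from 71227182 (height 63.6, beside a wild type KLA peak of 23.6), at chromosome 8 from 74846632 (76.3, beside an untreated wild type peak of 64.3) and at chromosome 11 from 79092061 (76.3, beside a knockout KLA peak of 71.7). The peaks left out by the smallest overlap shared 2 or 3 bp, at chromosome 10 from 127069071 (76.3, wild type KLA peak of 250.0), at chromosome 1 from 84347076 (89.0, knockout KLA peak of 65.7) and at chromosome 7 from 105683237 (101.8, wild type KLA peak of 221.7). Within 50 bp of an excluded peak there were 22 members, and 79 peaks were left out by an overlap of at most 50 bp.

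Most of the sites had no p65 peak listed after KLA in their immediate surroundings. The median distance between centres to the nearest KLA peak of either genotype was 13576 bp (11863 to 15564), with quartiles of 3436 and 54816 bp. A KLA peak was centred within 500 bp of 70 sites (6.97%, 5.48 to 8.73), against 56.5% of all untreated knockout peaks, a gap that the rule itself sets in large part. Within 10000 bp there was one at 434 sites (43.2%), against 73.6% of all untreated knockout peaks. Within 100000 bp there was one at 835 (83.2%), against 91.7%. The rule sets these gaps in part too. In the 91 wild type peaks of the mirrored rule the shares were 59.3% and 83.5%. The 1361 LXRβ peaks that overlapped no p65 peak of any list had a median distance of 4654 bp (3778 to 5348) and a share of 62.1% within 10000 bp. The share did not change in 1 direction with height. A KLA peak lay within 10000 bp of 46.3% of sites with 5 or 6 tags, 34.2% with 7 to 9 and 43.4% with 10 or more.

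**Figure D3:**
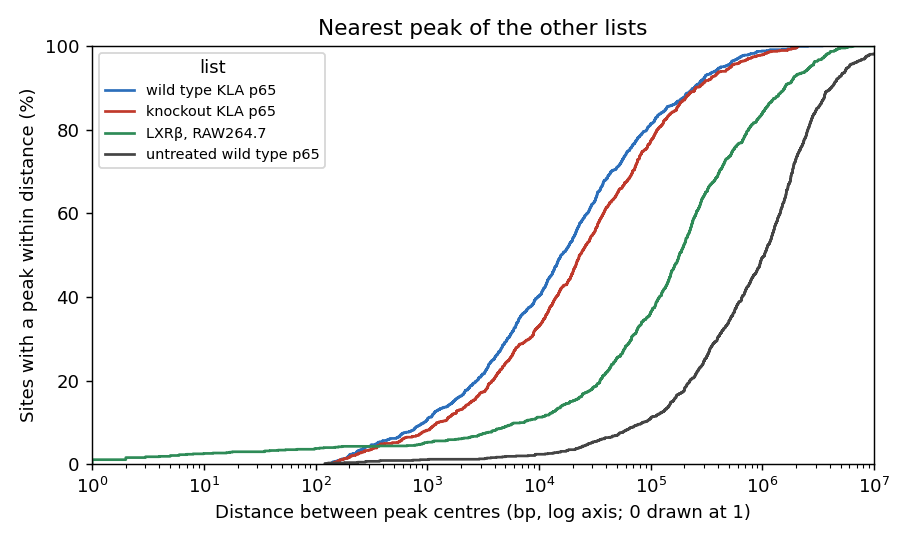
Share of the 1004 sites (y axis, %) with a peak of another list centred within a given distance (x axis, bp, log scale, with 0 drawn at 1). Lines stand for the wild type and knockout KLA p65 lists, the untreated wild type p65 list and the LXRβ list. The lines of the KLA lists reach 40.1% and 32.9% at 10000 bp, and the LXRβ line is already at 4.18% at 200 bp.

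KLA peaks near the sites had medians above those of their lists. At the 61 sites with a wild type KLA peak centred within 500 bp its median height was 61.3, where the whole wild type KLA list had 42.4. At the 51 sites with a knockout KLA peak that near the median was 71.7, against 53.8 in the whole list. Untreated wild type peaks were rarer neighbours, at 8 sites within 500 bp and 23 within 10000 bp. Their list was far shorter, with 702 peaks against 30021 in the wild type KLA and 22585 in the knockout KLA list.

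Input signal was low at the sites. The authors' list gives input tags scaled to the library, and 445 sites (44.3%, 41.2 to 47.5) were listed at 0.0, against 25.1% of all untreated knockout peaks. The share was 5.75% (4.35 to 7.44) in the 939 knockout-only peaks that overlapped a KLA peak, and 21.1% (16.5 to 26.3) in the 284 peaks shared with untreated wild type cells. The order was the same within bins of tag number. Among peaks with 7 to 9 tags the shares were 55.6%, 4.35% and 6.45%, and among those with 10 or more they were 66.4%, 25% and 36.8%. Taller sites of the set were thus more often listed at 0.0 than lower ones, at 66.4% against 36.4% of those with 5 or 6 tags. The whole untreated knockout list rose likewise, from 19.5% with 5 or 6 tags to 46.0% with 10 or more. Of the 91 wild type peaks of the mirrored rule, 27.5% (18.6 to 37.8) were listed at 0.0, against 21.4% of all untreated wild type peaks. With 10 tags or more these shares were 11.1% (0.281 to 48.2), which is 1 of 9 peaks, and 24.5%. Input tags entered the authors' peak calling, and the same input, of untreated macrophages and named as wild type in the file headers, served both genotypes.

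Taken over all tag numbers, the sites also stood further above their surroundings than the other classes of the list did. The fold over local signal, the authors' ratio of tag density at the peak to that in the 10000 bp around it, had a median of 107.3 (98.0 to 117.5) at the sites. It was 58.8 (56.0 to 62.7) in knockout-only peaks at KLA sites and 69.7 (61.0 to 90.4) in the shared peaks. With 5 or 6 tags the medians were 78.4, 56.0 and 52.2, and with 7 to 9 they were 156.7, 68.6 and 61.0. With 10 or more they were 276.9, 140.4 and 274.3. That bin has no upper limit, and its median tag numbers were 12, 12 and 21. The shared peaks in it were thus taller than the sites, and the classes were not matched on tags there. Wild type peaks of the mirrored rule with 5 or 6 tags had a median of 96.1 (68.6 to 120.1). All untreated wild type peaks of that tag number had 74.5. With 7 to 9 and with 10 or more tags there were only 9 mirrored peaks each, with medians lower than their list. These were 18.8 (10.2 to 69.9) against 96.1 and 12.1 (5.97 to 52.4) against 73.4.

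Low focus ratios were rarer at the sites than in the other classes of the untreated knockout list. This ratio, computed by the authors, stands for the fraction of a peak's tags that lie on the side of the centre predicted by their strand. Its listed values rose with tag number, with medians at the sites of 0.833 with 5 or 6 tags, 0.875 with 7 to 9 and 0.917 with 10 or more. The highest value in the untreated knockout list was 0.983. The shares below 0.8 are therefore read between classes within a bin of tag number, and not from lower to taller peaks. In the bin of 10 tags or more the shared peaks were taller than the sites, with medians of 21 and 12 tags. A value below 0.8 was found at 22.7% of the sites with 5 or 6 tags, at 9.78% (6.23 to 14.4) with 7 to 9 and at 6 of 122 sites (4.92%, 1.83 to 10.4) with 10 or more, where the share over all untreated knockout peaks of that tag number was 11.4%. In knockout-only peaks at KLA sites these shares were 38.2%, 33.3% and 16.7%, and in the shared peaks 50.6%, 35.5% and 15%. Median focus ratios of peaks with 10 tags or more were alike, at 0.917, 0.917 and 0.923. The lower quartile was 0.909 at the sites, 0.829 at KLA sites and 0.850 in the shared peaks. The wild type peaks that the mirrored rule chose did not differ from the sites in 1 direction. Of these, 9 of 73 with 5 or 6 tags (12.3%, 5.80 to 22.1) were below 0.8, a lower share than at the sites with overlapping intervals, and 7 of 9 with 7 to 9 tags and 6 of 9 with 10 or more were below it, both higher shares. The 9 with 10 tags or more had a median scaled input of 1.10 tags, against 0.1 in all untreated wild type peaks of that tag number.

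LXRβ peaks overlapped 39 of the 1004 sites (3.88%, 2.78 to 5.27), against 8.98% of all untreated knockout peaks. The LXRβ list was not used by the rule and comes from another cell, so an overlap means the same position and not binding in the same cell. The share was 11.8% (9.83 to 14.1) in knockout-only peaks at KLA sites and 17.6% (13.4 to 22.5) in the shared peaks. Within the set it was 2.74% (1.63 to 4.30) with 5 or 6 tags and 4.44% (2.15 to 8.02) with 7 to 9. With 10 or more it was 9.02% (4.59 to 15.6). In knockout-only peaks at KLA sites it rose likewise, from 10.1% (7.94 to 12.7) with 5 or 6 tags to 15% (10.4 to 20.6) with 7 to 9. In the shared peaks it was 23.6% (15.2 to 33.8) and 24.2% (14.2 to 36.7) in the same bins. The intervals of the sites lay below those of the other classes in each of these bins. At 10 tags or more the classes had overlapping intervals, with 20% (10.8 to 32.3) at KLA sites and 10.5% (5.88 to 17.0) in the shared peaks. The share was similar far from and near KLA peaks, with 24 of 570 sites over 10000 bp from any KLA peak (4.21%) and 15 of 434 nearer sites (3.46%) overlapping LXRβ.

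Where the peaks overlapped, the p65 and LXRβ centres lay within 10 bp of each other more often at these sites than in the other classes. Whether p65 itself was bound at these positions, or the DNA came from another source, was not tested, and all p65 lists come from 1 antibody. The median distance between the p65 and the LXRβ centre was 5 bp at the 39 sites, and 25 of them (64.1%, 47.2 to 78.8) were within 10 bp. At the 111 knockout-only peaks at KLA sites the median was 35 bp, and 17 (15.3%, 9.18 to 23.4) were within 10 bp. At the 50 shared peaks these were 23.5 bp and 13 (26.0%, 14.6 to 40.3). Within 50 bp the classes were closer, with 84.6% (69.5 to 94.1) at the sites, 63.1% (53.4 to 72.0) at KLA sites and 82% (68.6 to 91.4) in the shared peaks. Among peaks with 10 tags or more, 9 of 11 sites, 4 of 12 peaks at KLA sites and 7 of 14 shared peaks were within 10 bp, and the intervals of these shares overlap. The LXRβ peaks at the 39 sites were of ordinary height for their list, from 8.2 to 19.1 with a median of 10.9, which was also the median of the whole LXRβ list.

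**Figure D4:**
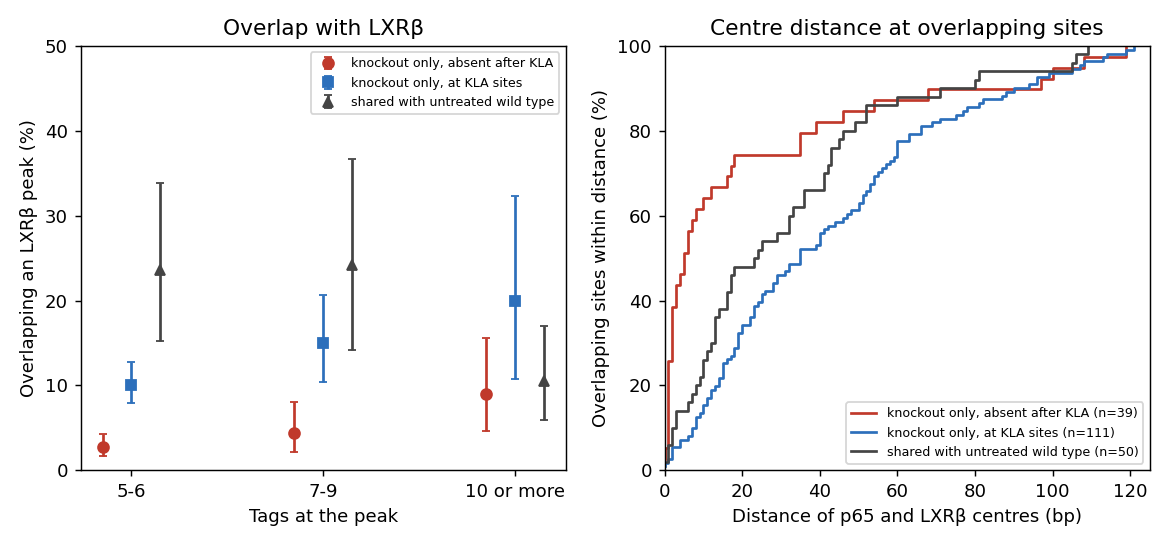
Left, share of untreated knockout p65 peaks overlapping an LXRβ peak (y axis, %) by tags at the peak (x axis), for 3 classes, with 95% Clopper-Pearson intervals. Right, share of the overlapping sites (y axis, %) whose p65 and LXRβ centres lie within a given distance (x axis, bp), where 64.1% of the sites absent after KLA are within 10 bp against 15.3% and 26.0% in the other classes.

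The tallest of these, on chromosome 12 between 81688879 and 81689005, had a p65 height of 229.0 (136 to 362, 18 tags), and an LXRβ peak of 10.9 was centred 10 bp away. Its nearest KLA peak was 151345 bp away. At chromosome 1 from 17004127 to 17004253 the p65 height was 178.1 and an LXRβ peak of 12.7 was centred 1 bp away, with no KLA peak within 266720 bp. The p65 height was also 178.1 at chromosome 7 from 53212768 to 53212894 (LXRβ 11.8, 2 bp away) and at chromosome 11 from 117704431 to 117704557 (LXRβ 8.2, 2 bp away), and it was 165.4 at chromosome 7 from 62766225 to 62766351 (LXRβ 9.1, 18 bp away). The nearest KLA peaks to these were 34420, 5940 and 34860 bp away. All 5 sites were listed with 0.0 scaled input tags and focus ratios of 0.929 to 0.947. Of the 39 sites, 24 lay over 10000 bp and 10 over 100000 bp from any KLA peak. Of all 1004 sites, 570 lay over 10000 bp from any KLA peak, and 835 (83.2%) had one within 100000 bp.

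The sites were scattered over the genome. Of the windows of 100 kb with any site, 902 held 1 site, 47 held 2 and 1 held 8. The median distance from a site to another of the set was 490746 bp, and 36 sites (3.59%) had another within 10000 bp. The next windows by the naming rule, the first by position among the 47, from 63100001 and from 167600001 of chromosome 1, held 2 sites each and 2 and 8 knockout KLA peaks.

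The 1 cluster lay on chromosome 11. Between positions 104378717 and 104398026 the untreated knockout list had 9 peaks, of which 8 belonged to the set. Along the chromosome, the heights of these 8 were 101.8, 101.8, 76.3, 101.8, 101.8, 190.8, 267.1 and 89.0, which is 6 to 21 tags. The ninth, from 104389562 with a height of 190.8, was left out because it overlapped a wild type KLA peak of 28.3. Untreated wild type cells had no peak in the window from 104300001 to 104400000, and LXRβ had none. The KLA lists had 3 wild type peaks and 1 knockout peak there, of which the peak of 28.3 was the only one inside the cluster. At equal height its sites would have held 16.2 to 56.6 tags in the wild type KLA library. Their scaled input was 0.0 to 0.2 tags and their focus ratios were 0.750 to 0.889.

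Among all chromosomes, X and 11 were those on which the interval of the sites' share lay above the shares of both KLA lists. The intervals were not widened for the number of chromosomes looked at. Chromosome X held 35 of the 1004 sites (3.49%, 2.44 to 4.82), against 2.07% of all untreated knockout peaks, which is 35 of the 46 peaks of that list on X. It held 1.76% of wild type KLA peaks, 1.60% of knockout KLA peaks and 0.639% (0.235 to 1.39) of knockout-only peaks at KLA sites. The share was 2.13% for sites with 5 or 6 tags, 5.78% (3.11 to 9.68) with 7 to 9 and 6.56% (2.87 to 12.5) with 10 or more. The whole untreated knockout list, which includes the sites, rose likewise, at 1.34%, 2.83% and 4.13%. The tallest sites on X, chosen after their values were seen, were a pair of height 190.8. They lay at chromosome X from 20204636 to 20204762 and from 103236203 to 103236329, and their nearest KLA peaks were 123148 and 5034 bp away. Chromosome 11 held 95 sites (9.46%, 7.72 to 11.4), 8 of them in the cluster, against 7.38% and 7.33% of wild type and knockout KLA peaks. This was not particular to the sites. Chromosome 11 held 8.58% of all untreated knockout peaks, 9.26% of untreated wild type peaks and 11.6% (8.13 to 15.9) of the shared peaks.

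**Figure D5:**
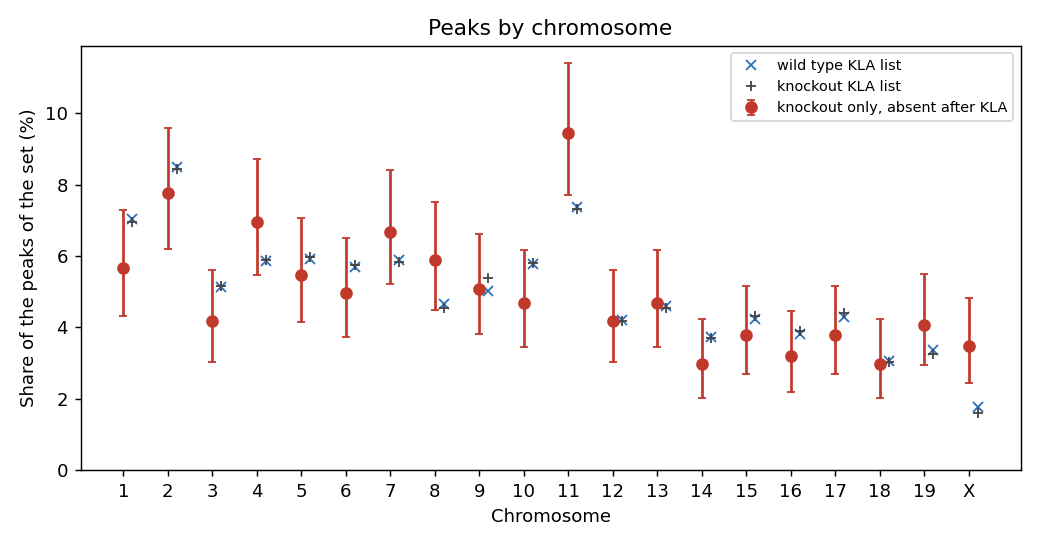
Share of the peaks of a set on each chromosome (y axis, %; x axis, chromosomes 1 to 19 and X) for the 1004 sites, with 95% Clopper-Pearson intervals, and for the wild type and knockout KLA p65 lists. On X the sites reach 3.49% against 1.76% and 1.60%.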

How the data were processed

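Of 23 samples, 5 had peak lists and are analysed here. The submitters' processing notes name Bowtie 0.12.7, HOMER and build mm9. Per the file headers, HOMER's findPeaks in its factor style gave each library its own list (false discovery rate 0.001), counting at most 1 tag per bp, with 4-fold over the surrounding 10000 bp, a Poisson p-value of 0.0001 and, except in the wild type KLA list, 4-fold over input. Peaks of KLA libraries were 132 bp (wild type) and 144 bp (knockout) wide. The assumed genome size was 2000000000 for the wild type KLA list and 4000000000 for the 3 other p65 lists. The deposited normalized tag count is a signal per 10000000 tags; tags at a peak were computed back from it. The deposited fold over local signal is a ratio, the deposited focus ratio a fraction and the deposited findPeaks score was not used; the authors' p-values were used only through their thresholds, and folds and ratios only within the untreated knockout or wild type list.

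Overlaps were computed with Python 3.11.15, numpy 2.4.6, pandas 2.3.3 and scipy 1.17.1, gave the counts of bedtools 2.31.1, and found 100% of 500 overlaps simulated for the untreated knockout against the knockout KLA list. Shares have exact Clopper-Pearson intervals and medians order-statistic intervals at 95%. The members, gene lists and alternatives were chosen with earlier results of these data known. Named sites followed a rule: the 10 tallest, the 5 tallest with less than 1 scaled input tag, the 5 tallest with LXRβ, the 3 closest on each side of the overlap rule, and the 3 windows of 100 kb with most sites; the tallest sites on X and the focus ratio limit of 0.8 were chosen after values were seen. Sequences, motifs and gene lists were not analysed here because no genome of build mm9 was used.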

Additional observations from a re-analysis of the deposited data

How the results depend on the processing

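No paired analysis was possible because each group was 1 library, and no replicate could be left out. The number of sites was 1004, and between 933 and 1162 under the other definitions of a shared site, with an input limit, with equal widths and with equal lowest KLA heights. It was 347 with 7 tags or more, and, in alternatives chosen after seeing the data, 122 with 10 tags or more and 570 with no excluded peak centred within 10000 bp. The share overlapping LXRβ was 6.05% with 7 tags or more and 9.02% with 10 or more. The median height then was 101.8 and 152.6, and the share with 6 tags or fewer was 0% by construction. That share was 61.9% over 10000 bp from excluded peaks. The share with 1 or more scaled input tags was 0% with the input limit, by construction, 0% over 10000 bp from excluded peaks and 1.64% with 10 tags or more. The share with a KLA peak centred within 500 bp was the value that depended most on the definition. It was 10.3% with centres 100 bp apart as the limit, 19.4% with a reciprocal overlap of 50%, 4.40% with all peaks 200 bp wide, 2.88% with 7 tags or more, 0.820% with 10 or more, and 0% by construction with limits of 500 bp and 10000 bp. The share on X was 6.05% and 6.56% with 7 or 10 tags or more. Depth limits the set, with 657 of 1004 sites resting on 6 tags or fewer.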
